A study of Mus musculus with 19 samples.

Results

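The Cdkn2a and p53 barrier can stop a cultured cell from dividing, and 10 genes that form it, act on it or are its targets were followed from fibroblasts to prostate tissue. They are the INK4 inhibitors Cdkn2a, Cdkn2b and Cdkn2c, the CIP/KIP inhibitors Cdkn1a and Cdkn1b, Trp53 and its regulator Mdm2, cyclin D1 (Ccnd1) and the pocket protein genes Rb1 and Rbl1. The genes were taken by name, with no threshold on their values, and all 10 were found in both deposited tables, among the 23284 genes of each table. They and the gene lists used below were chosen with earlier results of these data known, so counts from them are a description. The study turned mouse fibroblasts into cells that grew as prostate tissue, and RNA sequencing was done on 19 samples in all.

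The 6 MEF samples were C57BL/6 mouse embryonic fibroblasts from E13.5 embryos, labelled as heterozygous for a lacZ allele, and the prostates and grafts carry no such label. They came from limb buds of pooled male and female littermates, were grown with 10% serum, and were sorted against blood, endothelial and epithelial surface markers. The 6 prostate samples were prostate tissue of wild-type C57BL/6 mice at 6 weeks of age. The renal grafts were induced epithelial (iEpt) cells, made from fibroblasts with retroviral OCT4, SOX2, KLF4 and c-MYC, and combined with rat urogenital mesenchyme. They grew for 6 weeks under the kidney capsule of male nude mice that carried testosterone pellets. Of these, 5 grafts were in the same table as the MEFs and prostates and are called grafts here, and 2 further grafts, FS022 and FS023, were in a table of their own. The sample labels do not say which grafts also carried the further factors that the study added with lentiviruses. The study's supplement lists the 5 grafts of the first table as carrying them, and FS022 and FS023 would then be iEpt only grafts by elimination. No label states the genotype of the fibroblasts behind each graft, and retroviral and lentiviral copies stay integrated in the genome of the cells. The labels do not say that samples of a group came from separate animals or cultures, so that p-values measure the spread between these samples, which may in part be technical.

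Values are log2 levels on the scale that the authors deposited, in which 1 unit is close to a doubling except at the lowest levels. As the spacing of the values showed, about 16800000 to 26200000 reads fell on genes in each sample of the first table, and about 6600000 and 9700000 in FS022 and FS023. A count of 3 reads corresponded to values of 1.68 to 2.34 in the 17 samples tested, and to 3.12 and 2.70 in FS022 and FS023. These floors cover counting error only. Groups were compared with limma, and a gene was called when its Benjamini-Hochberg adjusted p-value over all genes tested was under 0.05 and its log2 difference was at least 1. The tables were normalized separately, so FS022 and FS023 are given as values and entered no test.

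Several libraries stood apart before any member was considered. The MEF samples fell into 3 close pairs, FS015 with FS020, FS016 with FS019 and FS017 with FS018. Their members correlated at r = 0.975 across genes, against 0.954 to 0.967 for the other MEF pairs, with a chi-square per degree of freedom of 2.92 to 13.4 against 82.6 to 112. The pairs differed by more than counting noise and were kept as separate samples, but paired libraries of 3 cultures would also differ by more than that, and whether they are so was not stated. Results with each pair averaged are therefore given as well. The grafts divided more widely. FS007 and FS008 correlated with FS002, FS003 and FS005 at r = 0.884 to 0.908 across genes. FS002, FS003 and FS005 correlated with each other at 0.951 to 0.959, and FS007 with FS008 at 0.942. Differences of FS007 and FS008 from the other grafts in single genes therefore lie within a difference across many genes. MEF samples FS015 to FS018 carried prostate secretory transcripts, with Pbsn (probasin) at 6.59 to 8.55, while FS019 and FS020 were at 0.02 and 0.35, below the value of 3 reads. MEF samples FS015 and FS020 carried Ptprc, which encodes CD45, at 8.83 and 8.50, against 1.31 to 3.48 in the other 4 MEF samples, although the cells had been sorted against CD45. All 8 kidney markers were called higher in the grafts than in the prostates, with a summed log2 level of 10.32 to 17.37 in the grafts and 2.53 to 6.71 in the prostates, where 4 to 8 of the 8 were at or below 3 reads. All 8 epithelial markers were called higher in both the grafts and the prostates than in the MEFs. The prostate marker Pbsn was no higher than 8.32 in the grafts and at 16.88 to 18.32 in the prostates, and all 5 prostate secretory markers were called lower in the grafts. Of the markers tested, 6 of 6 for immune cells and 4 of 5 for endothelium were called higher in the grafts than in the MEFs, and 6 of 8 for muscle were higher and 2 lower. Of all genes tested, 29.9% were called higher and 12.0% lower in the grafts than in the MEFs. In the prostates 27.8% were called higher than in the MEFs. Between grafts and prostates, 23.0% were higher and 10.3% lower in the grafts. The part of the marked cell types in the results was not tested. These are bulk tissues, in which fewer cells of a type and less RNA per cell cannot be told apart. The grafts were also made with rat mesenchyme and grew in mouse hosts, and the only build named for the reads is the mouse build mm9. Graft values can therefore mix RNA of the grafted cells, the host and the rat. The part of each was not tested.

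As background, the INK4 proteins bind the cyclin D kinases CDK4 and CDK6, and the CIP/KIP proteins bind cyclin and kinase complexes more broadly. While these kinases are active, RB and its relatives p107 (Rbl1) and p130 (Rbl2) are phosphorylated and release E2F factors, which switch on the genes of DNA replication. Cdkn2a encodes a second protein, p19Arf, in another reading frame, which binds MDM2 and so protects p53 from degradation, and p53 in turn raises Cdkn1a and Mdm2. The locus is known to be silent in most tissues of young animals and to switch on as fibroblasts are passaged in culture, and it is a known obstacle to reprogramming by OCT4, SOX2, KLF4 and c-MYC.

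In genome build mm9 with the GENCODE M1 annotation, Cdkn2a lies at chr4:88920377-88940557 and Cdkn2b at chr4:88952198-88956941, both on the minus strand and 11.64 kb apart. Cdkn2a has 3 annotated transcripts there, and the values are per gene, so that p16Ink4a and p19Arf cannot be told apart. Cdkn1a lies at chr17:29227924-29237667 on the plus strand, Trp53 at chr11:69393861-69405375 on the plus strand, and Mdm2 at chr10:117125944-117147814 on the minus strand. Cdkn1b lies at chr6:134870419-134875531 on the plus strand. On the minus strand are Cdkn2c at chr4:109333481-109339794, Ccnd1 at chr7:152115836-152125774, Rb1 at chr14:73583480-73725629 and Rbl1 at chr2:156971629-157030270. Matches to the p53 response element were searched for from 3000 bases before to 1000 bases after the annotated start of each gene. The element was taken as 2 adjoining sites of 10 bases, each with its core C and G fixed and at most 1 mismatch elsewhere in the 20 bases, a pattern that reads the same on both strands. Of the 10 members, Cdkn1a held a match, and of the 25 other p53 target genes listed for the comparisons, 3 held one (12.0%), against 0.652% of 22237 protein-coding genes. The matches are shown because these genes are set beside each other in the results, with the fixed core bases in capitals, 5′ to 3′ on the strand of the gene.

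Cdkn1a, chr17:29227873-29227892, plus strand, 51 bases before the annotated start: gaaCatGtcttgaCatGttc
Ccng1, chr11:40568964-40568983, minus strand, 170 bases before the start: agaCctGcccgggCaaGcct
Ccng1, chr11:40568438-40568457, minus strand, 356 bases after the start: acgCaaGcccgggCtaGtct
Gtse1, chr15:85690375-85690394, plus strand, 238 bases after the start: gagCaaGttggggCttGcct
Psrc1, chr3:108187574-108187593, plus strand, 817 bases after the start: gggCatGttgaggCatGccc

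Each of the 5 has 1 mismatch to the element. A match describes letters in the sequence and is not evidence of binding, and the lack of a match elsewhere says only that these letters are not in the window.

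Among the 3 INK4 genes, Cdkn2a and Cdkn2b differed widely between the sample groups and Cdkn2c did not. The 5 grafts, in the order FS002, FS003, FS005, then FS007 and FS008, had Cdkn2a at 7.89, 7.11, 8.12, 10.07 and 10.69. In the MEFs it ranged from 8.84 to 9.95 with a median of 9.30, and in the prostates from 1.02 to 2.96 with a median of 1.86. The prostates lay below every graft and MEF sample, whereas the grafts lay on both sides of the MEFs, with 3 below them and 2 above. In 4 of the 6 prostate samples Cdkn2a was at or below the value of 3 reads. With those samples set to their floor, the mean was 6.49 log2 units higher in the grafts and 7.10 higher in the MEFs. The floor limits the prostate counts only, and these differences of means do not cover the spread between samples. On the same footing, the lowest graft lay 4.15 above the highest prostate, and the lowest MEF 5.89 above it. Between grafts and MEFs the difference was -0.62, with a 95% interval from -1.90 to 0.67 and an adjusted p of 0.37, an interval that includes both a fall and a rise. Grafts FS003 and FS007 had the lowest summed kidney marker levels of the 5 grafts, 10.32 and 12.78, and Cdkn2a values of 7.11, the lowest of the 5, and 10.07. FS022 and FS023 had Cdkn2a at 7.87 and 4.25, above their values for 3 reads.

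Cdkn2b encodes p15Ink4b, an inhibitor induced by TGF-beta. It was at 7.92, 8.95, 8.43, 8.33 and 8.16 in the 5 grafts, in the same sample order. It ranged from 9.32 to 10.53 in the MEFs (median 10.13) and from 3.95 to 5.91 in the prostates (median 4.53). The 3 groups did not overlap, and prostate was below the grafts and the grafts below the MEFs. The log2 difference was -1.63 ± 0.25 (SE) between grafts and MEFs (limma adjusted p = 0.000188) and -3.65 ± 0.34 between prostates and grafts (limma adjusted p = 7.56e-06). Grafts FS007 and FS008, the highest of the 5 in Cdkn2a, were not the highest in Cdkn2b. In FS022 and FS023 its values were 8.03 and 6.54.

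Cdkn2c encodes p18Ink4c and lies elsewhere on chromosome 4. It was at 7.71, 7.38, 7.20, 7.04 and 7.33 in the grafts, from 6.66 to 7.47 in the prostates and from 7.29 to 9.35 in the MEFs. The MEF spread came from the pair FS017 and FS018, at 9.35 and 9.30, while the other 4 MEF samples were at 7.29 to 8.06. Prostate was 1.00 lower than MEF and was called by limma (adjusted p = 0.0181), although the groups overlapped. The call was lost without prostate FS014 (-0.89), without MEF FS017 (-0.78) and without MEF FS018 (-0.79). It was also lost with FS019 and FS020 as the only MEF samples, at -0.52 with an adjusted p of 0.081. Between prostates and grafts the difference was -0.12, with an interval from -0.52 to 0.28.

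**Figure D1:**
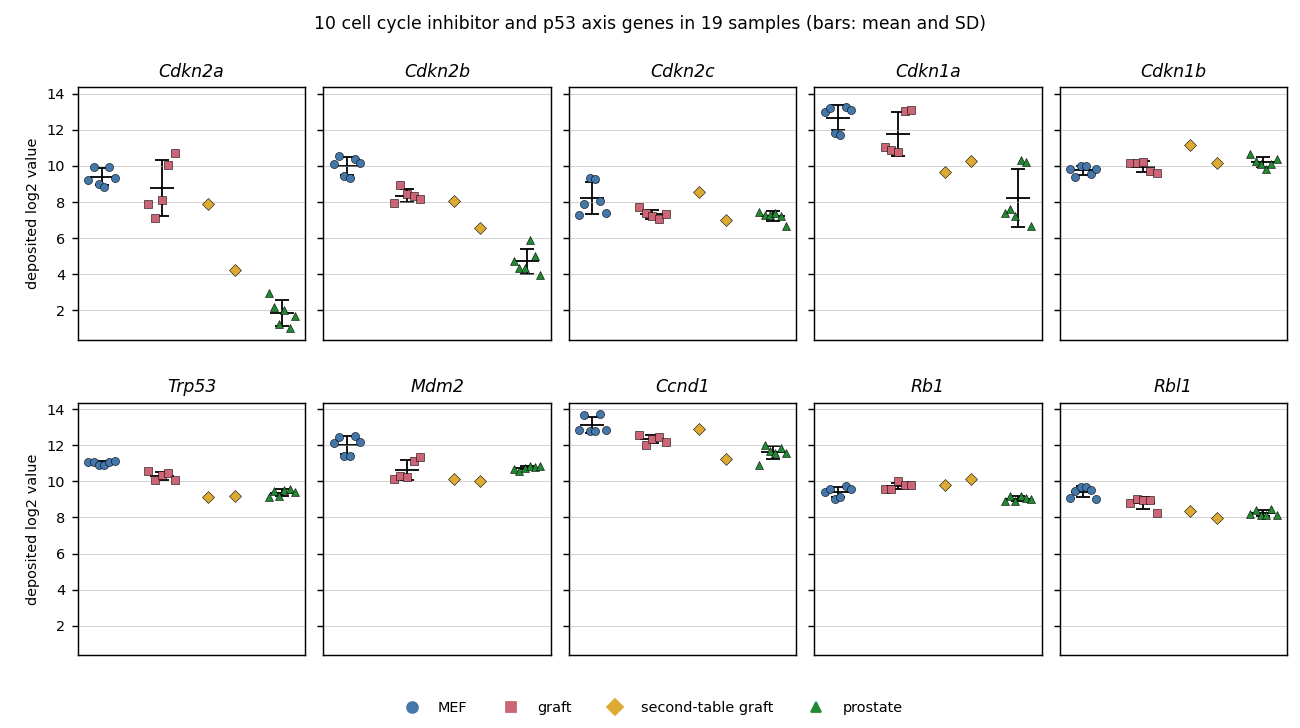
Deposited log2 value (y axis) of each of the 10 genes in each of the 19 samples, with a panel for each gene and samples ordered within MEF, graft, second-table graft and prostate. Horizontal marks and bars are the mean and SD of a group, not drawn for the 2 second-table grafts; Cdkn2a and Cdkn2b in the 6 prostates lie below every other sample, and Cdkn1a separates into a higher and a lower set of samples within each group of the first table.

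Cdkn1a, which encodes p21 and is a direct p53 target, was the member with the widest spread among the prostates, with an SD of 1.60, while Cdkn2a spread most among the grafts (SD 1.53) and Cdkn2c among the MEFs (SD 0.91). Cdkn1a was at 11.03, 10.86, 10.79, 13.05 and 13.08 in the 5 grafts. The MEF samples were at 12.97 to 13.23 except FS017 and FS018, at 11.81 and 11.71. The prostate samples were at 6.69 to 7.61 except FS012 and FS013, at 10.30 and 10.23. The 2 high prostates still lay below every graft. Prostate was 4.43 ± 0.64 lower than MEF (limma adjusted p = 2.51e-05), or 21.5-fold, and 3.52 ± 0.77 lower than the grafts (limma adjusted p = 0.00252). The grafts and MEFs overlapped, with a difference of -0.91 (interval -2.05 to 0.23, limma adjusted p = 0.143). Without graft FS008 that difference was -1.24 with an adjusted p of 0.0487. FS022 and FS023 were at 9.67 and 10.26, below the 5 grafts of the first table, although the tables were normalized separately.

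Cdkn1b, which encodes p27, differed little. It was at 10.14, 10.15, 10.22, 9.70 and 9.61 in the grafts, at 9.85 to 10.67 in the prostates and at 9.40 to 10.00 in the MEFs, and each pair of groups overlapped. Prostate was 0.47 higher than MEF (interval 0.17 to 0.77, limma adjusted p = 0.00734), under the minimum difference for a call. It was the only member whose estimate was higher in prostate than in MEF. Of the remaining family members, Cdkn1c (p57) was called lower in prostate than in MEF (-1.70, limma adjusted p = 0.0321) and than in the grafts (-1.42, limma adjusted p = 0.0118), with overlap between the groups in both. Its MEF values spanned 6.99 to 11.00, with FS015 and FS020 at 10.97 and 11.00. Cdkn2d (p19Ink4d) was at 3.94 to 5.79 in every sample of the first table.

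Trp53 was ordered MEF, graft, prostate, with no overlap between any pair of these groups. It was at 10.56, 10.09, 10.35, 10.46 and 10.05 in the grafts, at 10.90 to 11.13 in the MEFs and at 9.12 to 9.56 in the prostates. The SD was 0.23, 0.10 and 0.18 in these groups, so that the groups differed by more than their own spread. Prostate was 1.65 ± 0.08 lower than MEF (limma adjusted p = 1.10e-09) and was called. The grafts were 0.73 ± 0.10 below the MEFs (limma adjusted p = 0.000112), and the prostates 0.92 ± 0.12 below the grafts (limma adjusted p = 9.52e-05), both under the minimum difference of 1. The values are transcript levels and do not measure the p53 protein, which is controlled mainly by its degradation. Trp53 was at 9.13 and 9.17 in FS022 and FS023. A processed pseudogene of Trp53 could share some of its reads.

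Mdm2, which encodes the ubiquitin ligase that degrades p53, did not keep to that order. It was at 10.13, 10.27, 10.26, 11.14 and 11.33 in the grafts, at 11.39 to 12.50 in the MEFs and at 10.59 to 10.85 in the prostates. The MEFs lay above all grafts and prostates, by 1.38 ± 0.29 against the grafts (limma adjusted p = 0.0015) and by 1.26 ± 0.19 against the prostates (limma adjusted p = 3.53e-05). The span of the grafts enclosed that of the prostates, at a mean difference of 0.13 (interval -0.34 to 0.59), but no graft lay within the prostate range. FS002, FS003 and FS005 lay below every prostate, and FS007 and FS008 above every prostate. The prostate samples spanned 0.26 in Mdm2 while they spanned 3.61 in Cdkn1a.

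Ccnd1, the cyclin that partners CDK4 and CDK6, was at 12.58, 12.01, 12.34, 12.45 and 12.19 in the grafts, at 12.77 to 13.71 in the MEFs and at 10.92 to 12.03 in the prostates. The MEFs lay above all other samples of the table, and 1 prostate, FS010 at 12.03, reached the lowest graft. Prostate was 1.51 ± 0.22 lower than MEF (limma adjusted p = 2.57e-05). The grafts were 0.79 ± 0.21 below the MEFs (limma adjusted p = 0.006), a difference that shrank to 0.18 on the log2 scale after quantile normalization (-0.18, adjusted p = 0.45). In FS022 and FS023 it was at 12.89 and 11.22.

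The pocket protein genes did not move alike. Rb1 was at 9.57, 9.60, 10.00, 9.78 and 9.82 in the grafts and at 8.90 to 9.18 in the prostates, without overlap, and at 9.02 to 9.76 in the MEFs, which overlapped both. Prostate was 0.72 ± 0.10 lower than the grafts (limma adjusted p = 0.00015), under the minimum difference for a call. Rbl1, which encodes p107 and is itself an E2F target, was at 8.83, 9.04, 8.96, 8.95 and 8.24 in the grafts. It was at 9.01 to 9.71 in the MEFs and at 8.14 to 8.47 in the prostates. Prostate was 1.16 ± 0.13 lower than MEF (limma adjusted p = 2.50e-06), with no overlap, while graft FS008 at 8.24 lay within the prostate range. FS022 and FS023 had Rb1 at 9.79 and 10.11 and Rbl1 at 8.34 and 7.99.

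In the comparison of prostate with MEF, 8 of the 10 members were called, all of them lower in prostate, and 7 had no overlap between the groups. Over all 14560 genes tested, 48.3% were called in either direction, 20.5% were called lower in prostate, and 66.7% had no overlap. The median log2 difference of all genes was 0.17, so the lower members fell against a background shifted the other way. In the comparison of grafts with MEF, Cdkn2b and Mdm2 were called, both lower in the grafts, and 4 members had no overlap. There 41.9% of 16121 genes were called, 29.9% higher and 12.0% lower in the grafts, and 47.3% had no overlap, so 2 of 10 is not above the background. Between prostates and grafts, Cdkn1a, Cdkn2a and Cdkn2b were called, all lower in prostate, and 5 members had no overlap. There 33.3% of 16353 genes were called, 10.3% higher and 23.0% lower in prostate, and 37.2% had no overlap, so 3 of 10 is close to the background. The 3 comparisons share their samples and are not independent. After quantile normalization, the share of calls that were higher in the first group named went from 57.6% to 48.1% for prostate and MEF, from 71.3% to 42.5% for grafts and MEF and from 30.9% to 56.4% for prostate and grafts, and no member that was called changed direction.

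The exact two-sided permutation test over samples can give no p below 0.0022 in these designs. It gave that value for 7 members between prostate and MEF, for 4 between grafts and MEF (Cdkn2b, Trp53, Mdm2 and Ccnd1) and for 4 between prostate and grafts (Cdkn2a, Cdkn2b, Trp53 and Rb1). Cdkn1a had an exact p of 0.0065 between prostate and grafts and of 0.154 between grafts and MEFs. With each close MEF pair averaged to 1 sample, which leaves 3 MEF values, no call of a member changed in limma. The exact test can then give no p below 0.0119 against the 6 prostates and 0.0179 against the 5 grafts. Mdm2 had an exact p of 0.0357 between grafts and these 3 MEF values.

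**Figure D2:**
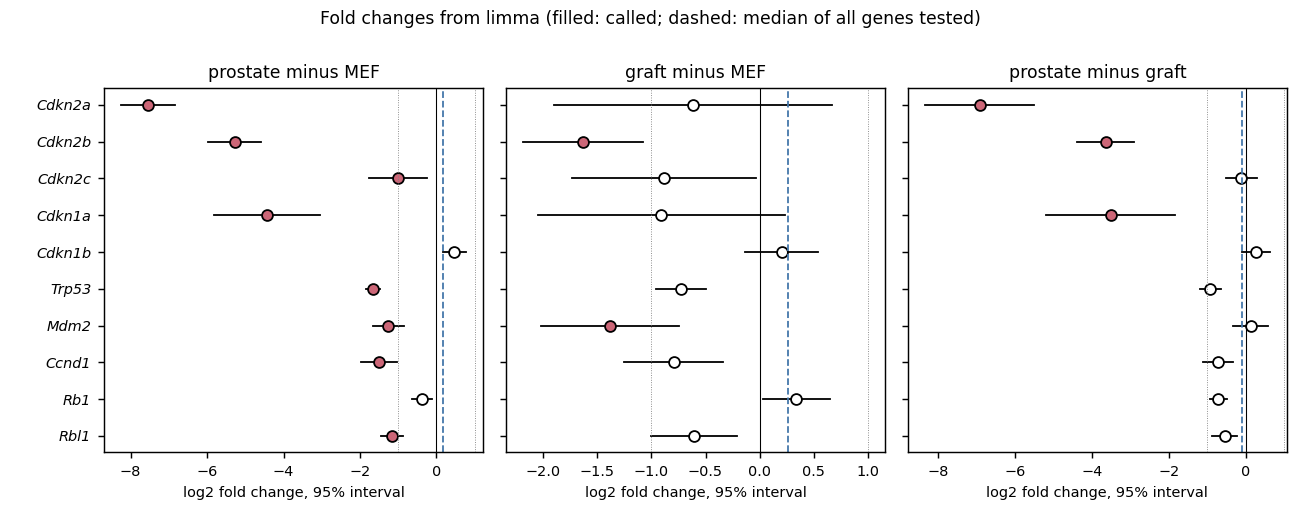
Log2 difference between group means (x axis, points) with its 95% interval from limma (lines) for the 10 genes in 3 comparisons, on axes that differ in range between panels. Filled points are called, dashed lines mark the median of all genes tested, and dotted lines mark a difference of 1. 8 points are filled in prostate minus MEF, 2 in graft minus MEF and 3 in prostate minus graft, all below 0; the Cdkn2a differences from prostate include 4 prostate samples at or below 3 reads and are not bounds.

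Scaled to exon length, the order of the genes differed between the groups. The scale is log2 of normalized reads per kilobase of exon plus 1, and the values that follow are levels. In the MEFs Cdkn1a ranked first at 11.52 ± 0.71 (SD, n = 6) and Ccnd1 next at 11.17 ± 0.45, which do not differ beyond their spread. Cdkn2b at 9.51 ± 0.50 and Cdkn2a at 9.16 ± 0.47 stood beside Mdm2 at 9.67 ± 0.50 and Trp53 at 9.01 ± 0.10. In the grafts the order again opened with Cdkn1a at 10.61 ± 1.19 (SD, n = 5) and Ccnd1 at 10.38 ± 0.22, followed by Cdkn2a at 8.55 ± 1.53. In the prostates Ccnd1 ranked first at 9.66 ± 0.38 (SD, n = 6), Mdm2 followed at 8.41 ± 0.10 and Cdkn1b at 8.05 ± 0.28. Cdkn1a came after Trp53 there, at 7.09 ± 1.59, and Cdkn2b at 4.22 ± 0.69 and Cdkn2a at 1.53 ± 0.71 were the last. Cdkn1b was the CIP/KIP or INK4 member with the highest level in prostate, although Cdkn1a was above it in samples FS012 and FS013.

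**Figure D3:**
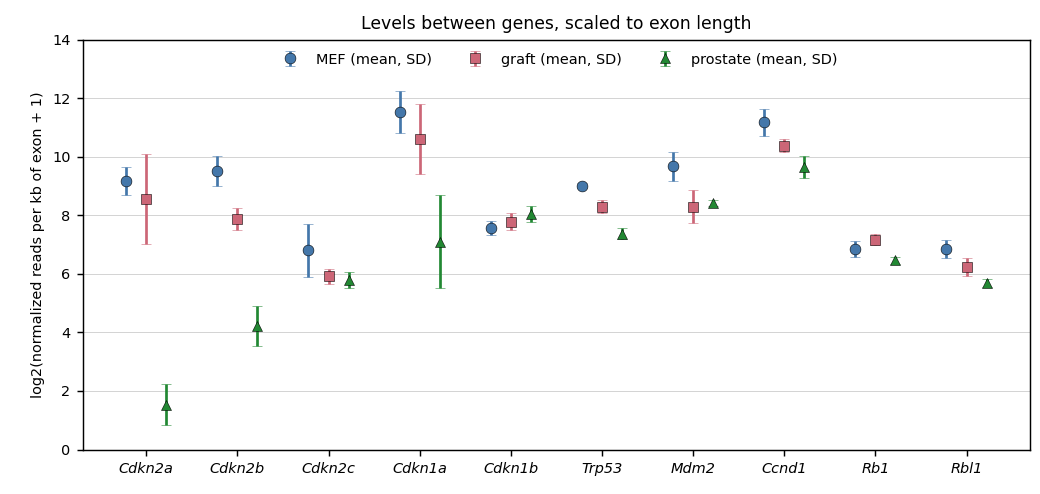
Level per length (y axis, log2 of normalized reads per kilobase of exon plus 1) of the 10 genes in MEF (n = 6), graft (n = 5) and prostate (n = 6), as mean and SD. Cdkn2a and Cdkn2b span the widest range between groups, from 9.16 and 9.51 in MEF to 1.53 and 4.22 in prostate, while Cdkn1b, Rb1 and Cdkn2c stay within about 1 unit.

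The listed p53 target genes moved in both directions. Of 25, 14 were called lower and 3 higher in prostate than in MEF, where 20.5% and 27.8% of all genes were, with a median log2 difference of -1.30 against 0.17 for all genes. Pmaip1, which encodes the apoptosis factor NOXA, was 5.78 ± 0.88 lower in prostate (limma adjusted p = 4.13e-05), the death receptor gene Tnfrsf10b 4.51 ± 0.30 lower (limma adjusted p = 1.45e-08) and Gtse1, a regulator of p53 in G2, 4.20 ± 0.29 lower (limma adjusted p = 1.82e-08). Perp, a desmosome component of epithelia, was 3.24 higher, the DNA repair gene Ddb2 2.66 higher and the ribonucleotide reductase gene Rrm2b 1.38 higher. Of the same 25, 11 targets in the grafts were called lower and 3 higher than in MEF, where 12.0% and 29.9% of all genes were. The median was -0.81 against 0.26. Tnfrsf10b, Gtse1 and the kinase gene Plk2 were lower there by 2.48, 2.06 and 1.91 on the log2 scale, and Perp, Ddb2 and Sesn1 were higher by 3.81, 1.61 and 1.40. Between prostates and grafts 6 were called lower in prostate and 3 higher, counts close to the 23.0% and 10.3% of all genes. The median was -0.57 against -0.11, and 16 were not called. Pmaip1, Psrc1 and Gtse1 were lower by 6.11, 2.74 and 2.14, and Fas, Ddb2 and Rrm2b were higher by 1.08, 1.05 and 1.01.

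Cdkn1a differed between samples of the same group, and the values of other targets in those samples are described here without a test, for samples picked by their Cdkn1a after its values were seen. Of the 25 targets, 16 were higher in both FS007 and FS008 than in each of the other 3 grafts, 2 were lower and 7 were neither, where 24.6% of all genes were higher and 29.2% lower. The 2 lower ones were Dram1, at 7.38 and 6.85 against 8.34 to 9.07, and Gadd45a, at 7.51 and 7.58 against 8.11 to 8.35. Grafts FS007 and FS008 had Pmaip1 at 12.17 and 11.04, against 9.55 to 9.76 in the other 3 grafts. Zmat3, which encodes a p53-induced RNA binding protein, was at 11.71 and 11.72 in them and at 9.90 to 10.04 in the other 3. Trp53inp1 was at 12.28 and 12.45 against 10.62 to 10.87, and Eda2r, a receptor of the TNF family, at 10.22 and 10.14 against 8.09 to 8.30. Bax, a pore-forming apoptosis factor, was at 10.89 and 10.91 against 9.75 to 10.00. Trp53 itself was at 10.46 in FS007, within the range of the other 3 at 10.09 to 10.56. In FS008 it was at 10.05, the lowest of the 5 grafts. FS008 also had the lowest Krt5, a basal keratin, of the 5 grafts, at 5.13 against 11.67 to 13.73, and the lowest Trp63, at 7.54 against 9.34 to 10.45.

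In the prostates, 15 of the 25 targets were higher in both FS012 and FS013 than in each of the other 4, 1 (Rrm2b) was lower and 9 were neither, where 10.6% of all genes were higher and 13.8% lower. FS012 and FS013 had Pmaip1 at 6.01 and 6.51, against 2.39 to 4.25 in the other 4. They also had Btg2, an antiproliferative immediate early gene, at 12.25 and 11.54 against 10.48 to 10.89, and Plk2 at 9.20 and 9.46 against 7.98 to 8.29. Mdm2 was at 10.83 and 10.79 there, inside the range of the other 4. In MEF samples FS017 and FS018, the pair with the lower Cdkn1a, 18 of the 25 targets were lower than in each of the other 4 MEFs, 1 (Dram1) was higher and 6 were neither, where 25.2% of all genes were lower and 25.7% higher. The pair had Pmaip1 at 7.90 and 7.81 against 11.08 to 11.40 in the other 4, and Mdm2 at 11.39 and 11.40 against 12.14 to 12.50. Cdkn2c and Rbl1 were highest in that pair, with Rbl1 at 9.70 and 9.71, and Trp63 was at 7.14 and 7.26 against 2.54 to 3.78 in the other 4. The prostate secretory transcripts noted above were present in FS015 and FS016 as well as in this pair, and their part in these differences was not tested.

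**Figure D4:**
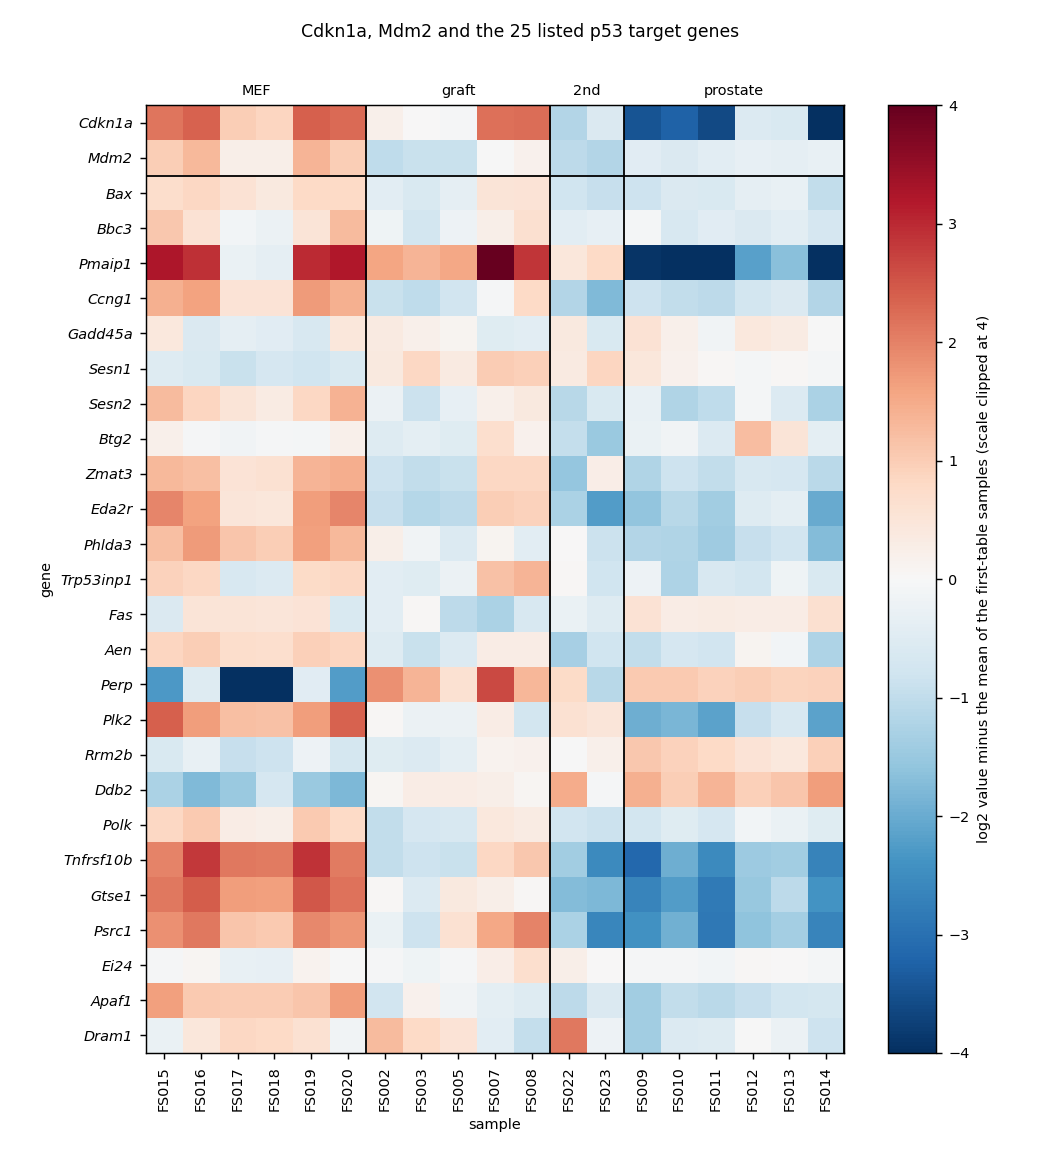
Log2 value of Cdkn1a, Mdm2 and the 25 listed p53 target genes (rows) in the 19 samples (columns), as the difference from the gene's mean over the 17 samples of the first table, with colours clipped at 4 units and the second-table grafts headed 2nd. Columns FS007 and FS008 are redder than the other grafts in Pmaip1, Zmat3, Eda2r and Trp53inp1, FS017 and FS018 are paler than the other MEFs in Pmaip1, and Perp, Ddb2 and Rrm2b are among the rows that are bluer in MEF than in prostate.

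**Figure D5:**
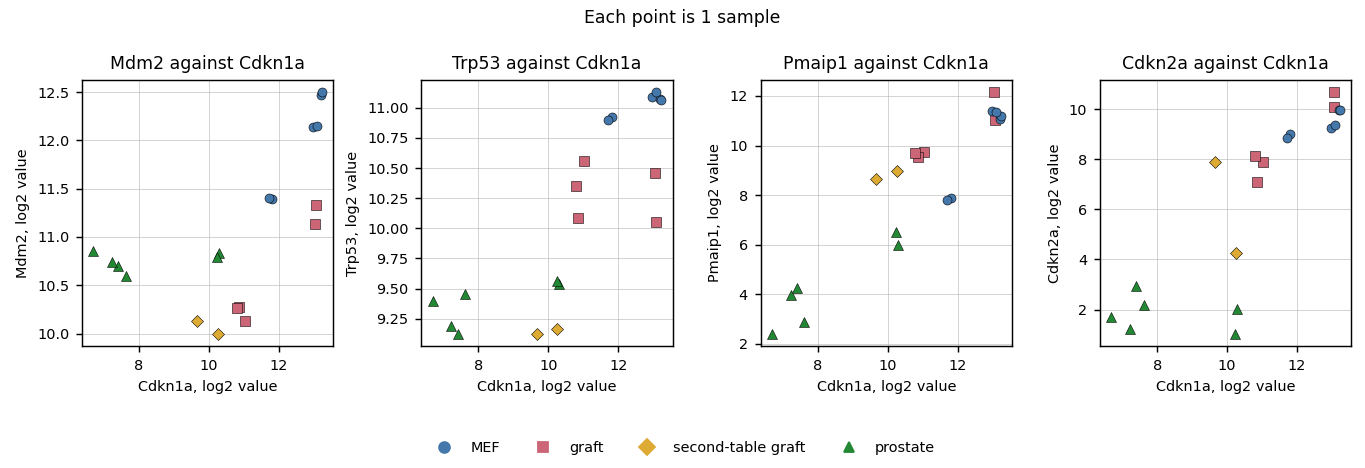
Log2 values of Mdm2, Trp53, Pmaip1 and Cdkn2a (y axes) against Cdkn1a (x axes), with 1 point for each of the 19 samples and a marker for each group. The prostates spread along the Cdkn1a axis from 6.69 to 10.30 while Mdm2 stays at 10.59 to 10.85, and within each group of the first table the samples in the upper set for Cdkn1a also lie higher in Pmaip1.

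Of 18 regulators and relatives of p53, 17 were tested between prostate and MEF, with 4 called higher and 1 lower, where 27.8% and 20.5% of all genes were. In the grafts 2 of 18 were called higher and 1 lower than in MEF, where 29.9% and 12.0% of all genes were. Trp63, which encodes the p53 relative of basal epithelial cells, was 5.11 higher in prostate (limma adjusted p = 4.65e-05) and 4.86 higher in the grafts (limma adjusted p = 0.00103) than in MEF. All 8 epithelial markers were higher in these samples as well, and their part in the Trp63 difference was not tested. Hipk2, a kinase that phosphorylates p53, was 1.77 lower in prostate than in MEF (limma adjusted p = 8.66e-06). The DNA damage kinase gene Atm was 1.33 lower in the grafts than in MEF and 1.13 higher in prostate than in the grafts (limma adjusted p = 6.06e-07 and 0.000324). Trp73 was at 2.55 to 7.49 in the grafts and at -1.50 to 1.17 in the MEFs, which is below the value of 3 reads. Rpl11 and Rpl23, ribosomal proteins that bind MDM2, were 2.22 and 1.09 higher in prostate than in MEF, but reads of ribosomal protein genes can be split with their many pseudogenes.

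Downstream of the inhibitors, the listed E2F and proliferation targets were ordered MEF, graft, prostate by their median differences. Not every gene of the E2F, DP and p130 list kept that order. All 20 listed E2F and proliferation targets were called lower in prostate than in MEF, 16 were lower in prostate than in the grafts, and 13 were lower in the grafts than in MEF, with none called the other way. Of all genes tested, 20.5% were called lower in prostate than in MEF and 23.0% lower in prostate than in the grafts. In the grafts 12.0% were called lower than in MEF. These shares also stand beside the G1 and E2F counts below. The median log2 differences were -2.75, -1.40 and -1.26, against 0.17, -0.11 and 0.26 for all genes. Plk1, a mitotic kinase, and Ccna2, cyclin A2, were 4.32 and 4.14 lower in prostate than in MEF, and Bub1, a spindle checkpoint kinase, 4.54 lower. They were 3.11, 2.84 and 2.75 lower in prostate than in the grafts. The proliferation marker Mki67 was 2.10 lower in the grafts than in MEF (limma adjusted p = 3.71e-06), with Top2a and Rrm2 lower by 2.04 and 2.00. Of 7 G1 cyclins and kinases, 5 were lower in prostate than in MEF, among them Ccne1 (cyclin E1) by 4.15, Ccnd2 by 3.79 and Ccne2 by 3.15. Against the grafts, 4 of the 7 were lower in prostate, including Ccne1 by 2.05, Cdk6 by 1.83 and Ccnd2 by 1.80, and in the grafts 3 were lower than in MEF, including Ccne1 by 2.11 and Ccne2 by 1.64. Of 11 E2F, DP and p130 genes, 6 were lower in prostate than in MEF and E2f2 was higher, by 2.27, where 27.8% of all genes were called higher. In the grafts 4 of the 11 were called lower than in MEF. E2f2 was 2.90 higher there (limma adjusted p = 4.9e-05), where 29.9% of all genes were called higher. Its mean was 5.40 in the MEFs, 8.30 in the grafts and 7.68 in the prostates. E2f7, E2f8 and E2f1 were lower by 4.75, 3.52 and 2.73 in prostate, and by 2.18, 1.23 and 1.80 in the grafts. The MEFs and grafts, which had more Cdkn2a, Cdkn2b and Cdkn1a than prostate, also had more of the proliferation transcripts. MEFs were growing in serum, and tissue and culture cannot be told apart from cell type in this design.

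Genes known to repress or activate the Cdkn2a locus gave no uniform direction. Of 14 Polycomb and T-box repressors, 5 were called higher and 2 lower in prostate than in MEF, with a median of -0.38, counts that are close to the 27.8% and 20.5% of all genes. Cbx7, a Polycomb subunit, was 4.57 higher in prostate (limma adjusted p = 6.37e-10), and the T-box repressors Tbx3 and Tbx2 were 4.10 and 2.29 higher. Ezh2, the Polycomb methyltransferase, was 1.25 lower and Bmi1 1.04 lower. In the grafts, Cbx7 and Tbx2 were 3.91 and 2.13 higher than in MEF and none of the 14 was called lower. Of all genes, 29.9% were called higher there and 12.0% lower. Tbx3 was at 5.26 to 9.28 in the grafts and at 12.34 to 13.09 in the prostates, a difference of 4.78 ± 0.64 (limma adjusted p = 9.69e-05). Grafts FS007 and FS008, the highest in Cdkn2a, were the lowest in Tbx3. Phc1 and Kdm2b were 1.64 and 1.52 lower in prostate than in the grafts. Kdm2b, a demethylase that recruits a Polycomb complex, was at 12.29 and 11.00 in FS007 and FS008 and at 9.02 to 9.34 in the other 3 grafts. Of 6 activators, Ets1 was lower than in MEF by 2.85 in prostate and by 1.73 in the grafts, and by 1.11 in prostate against the grafts, while Jund was higher than in MEF by 1.27 in prostate and by 1.43 in the grafts.

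Secreted proteins that accompany senescence were mostly highest in the MEFs. Of 11 tested, 8 were called lower in prostate than in MEF and none higher, where 20.5% and 27.8% of all genes were. Of 12 tested, 7 were called lower and 1 higher in the grafts than in MEF, where 12.0% and 29.9% of all genes were. Timp1, which encodes a metalloprotease inhibitor, was 6.24 lower in prostate and 4.91 lower in the grafts (limma adjusted p = 1.87e-08 and 1.70e-05). Between prostates and grafts, 5 were called lower in prostate, where 23.0% of all genes were. They included Plau, by 2.37, and Mmp13, whose mean of 2.13 in prostate is close to 3 reads and was 5.56 in the grafts. Il1a was at 3.45 to 7.66 in the grafts and at or below 1.63 in the MEFs, under the value of 3 reads, and Il6 had a mean of 1.92 in the grafts, close to 3 reads, and of 4.67 in the MEFs. Of 8 fibroblast markers, 7 were called lower in prostate and 8 in the grafts than in MEF, beside the same 20.5% and 12.0% of all genes. Col1a1 was lower by 5.78 and 5.03, and the part of fibroblasts in the senescence gene differences was not tested.

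Across the 17 samples of the first table, the genes with a pattern most like Cdkn2a, among 16101 genes, were Tmem132a (Pearson r = 0.986), Lrrc8a (0.981), Ccdc99 (0.980), Csnk1e (0.978) and Rab11fip5 (0.977). For Cdkn1a they were Lif (0.969), Psrc1 (0.955), Sh3pxd2b (0.954), Srgap1 (0.950) and Pmaip1 (0.949). Psrc1 and Pmaip1 are among the 25 listed p53 targets. For Rbl1 they were Zfp36l2 (0.975), Cxcl5 (0.972), Galnt13 (0.970), Sema3f (0.969) and Orc6 (0.969), of which Orc6 encodes a subunit of the origin recognition complex. The samples come from 3 groups that differ in most genes, so that these values mainly follow the group differences and are given as a description.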

How the data were processed

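RNA of 19 samples was sequenced with a TruSeq library kit. Per the labels, the authors' processing notes name bcl2fastq 1.8.4, TopHat, Cufflinks, DESeq and the mm9 build, and the Methods state that raw counts were normalized with DESeq. The values that the authors deposited are log2 levels, whose transformation is not named in the sources used here. They follow a variance-stabilizing curve, with 100% of values from 11.5 to 15 within 0.05 reads of a whole number of reads in every sample, while low values carry an added scatter, so counts were not recovered and count tests were not run.

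Groups came from the sample labels, and limma 3.58.1 in R 4.3.3 (lmFit, eBayes with trend) compared 2 groups at a time over the genes whose linear mean reached 10. Genes were called at an adjusted p under 0.05 and a log2 difference of at least 1. In a simulation in which 100 genes were changed by 2 log2 units and 100 by 3, the test recovered 84 and 95 of them for prostate with MEF (14560 genes, 6 false calls), 65 and 77 for graft with MEF (16121 genes, 6 false calls), and 80 and 86 for prostate with graft (16353 genes, 5 false calls). The simulated samples were drawn independently, and no smaller change was simulated. These figures therefore do not cover smaller differences or the close MEF pairs. Exact permutation tests were two-sided. The members and gene lists were chosen with earlier results of these data known. Named genes are the members, up to 3 genes per list, direction and comparison with the largest called difference and no overlap, and the 5 nearest patterns of Cdkn2a, Cdkn1a and Rbl1; values of further genes within groups were chosen after they were seen. Values of some listed genes are left out. Marker lists were used as a check of sample composition. Alternatives changed the filter, scaling, pseudocount, fit and samples; averaging MEF pairs and leaving out each MEF and prostate were added after seeing the data. Positions are from mm9 with GENCODE M1. Python 3.11.15, numpy, pandas, scipy, matplotlib and pysam were used.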

Additional observations from a re-analysis of the deposited data

Results flagged for a closer look

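In 30 sets of values (10 genes in 3 groups), Dixon's test at the 95% level marked 2 samples as far from the rest of their group, where chance marks about 1.5. Cdkn2c in prostate FS014 was at 6.66, below the other 5 prostates at 7.22 to 7.47. The call of Cdkn2c between prostate and MEF was lost without this sample (-0.89), and also without MEF FS017 or without MEF FS018. Rbl1 in graft FS008 was at 8.24, below the other 4 grafts at 8.83 to 9.04, and within the range of the prostates.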

How the results depend on the processing

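Of 530 recomputed differences of the 10 members, 521 kept their direction and their side of the threshold, and 26 of 30 results did so throughout. These recomputed values keep the minimum difference of 1; without it, 9 of the 30 results passed that had not been called. The exceptions among the recomputed values were Cdkn2c in all 3 comparisons and Cdkn1a between grafts and MEF. Quantile normalization reversed Cdkn2c between prostate and grafts, to 0.71 from -0.12, and brought Cdkn2c between grafts and MEF past the threshold (-1.88). Leaving out MEF FS015 or FS020 did the same (-1.07 and -1.05). With no minimum difference, 5 members were called between grafts and MEF and 7 between prostate and grafts, and 11772, 10573 and 9093 genes were called in the 3 comparisons in place of 7026, 6757 and 5440. Quantile normalization moved the median of all genes from 0.17, 0.26 and -0.11 to -0.02, -0.20 and 0.14. The genes called higher and lower were 4044 and 2982 in prostate against MEF, 4815 and 1942 in grafts against MEF, and 1683 and 3757 in prostate against grafts, and became 3313 and 3570, 2828 and 3830, and 3176 and 2455. The balance of directions over all genes depended on the scaling, and the cause was not tested, whereas no called member changed direction. Leaving out 1 sample at a time gave 7 to 8 members called between prostate and MEF, 2 to 3 between grafts and MEF, and 3 between prostate and grafts. Depth limits Cdkn2a in prostate. No paired analysis was possible because the labels carry no replicate numbers shared between groups.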
